A study of Mus musculus with 6 samples.

Results

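Transforming growth factor beta (TGF-beta) signalling was followed in group 2 innate lymphoid cells (ILC2s) of the inflamed and the uninjured mouse colon, through 10 genes chosen by symbol for their place in the pathway: Tgfb1, Tgfbr1, Tgfbr2, Smad2, Smad3, Smad4, Smad7, Ski, Skil and Tgif1. The choice was made with earlier results of these data known. All 10 were found among the 23268 genes of the expression table. The mice, of the strain C57BL/6, were 6 to 8 weeks old, and ILC2s were isolated from their colons by sorting. The DSS group had been given 3% dextran sulfate sodium, a chemical that injures the colonic epithelium, for 6 days, and the control group had been given water for the same 6 days. Each group had 3 libraries of full-length cDNA, and no genetic alteration is named for either group. The labels do not say whether a library came from 1 mouse or from a pool, nor which surface markers the sort used, and p-values here therefore reflect the scatter among these 6 libraries, part of which may be technical.

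TGF-beta is made as a latent protein and is released outside the cell. It binds the type II receptor TGFBR2, which switches on the type I receptor TGFBR1, and this kinase phosphorylates SMAD2 and SMAD3. These join SMAD4 and enter the nucleus to regulate genes. SMAD7 blocks the receptors, and the corepressors SKI, SKIL (also called SnoN) and TGIF1 hold SMAD complexes in check; SMAD7 and SKIL are known as feedback targets that the pathway itself induces. In the gut, TGF-beta is known for restraining inflammation and for promoting the tissue residence of lymphocytes.

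Levels are given in FPKM, fragments scaled by gene length and by library depth, so a comparison between genes rests on the gene lengths used, which the sources do not state. Total FPKM differed between libraries, from 424865 to 550141 in DSS and from 450140 to 459460 in control. The libraries held 9962415 to 18951020 whole fragments in the DSS group and 12670662 to 23119390 in the control group. The 10 genes rested on 171 (Tgfbr1, control replicate 2) to 15483 (Tgif1, control replicate 1) fragments in a library. The 10 markers of ILC2s were above 0 in every library and summed to 1473 to 1760 FPKM in DSS libraries and 2433 to 2547 FPKM in control libraries. Of these 10, 1 (Il5) was lower in DSS at a limma adjusted p under 0.05, beside 0.148% of all tested genes. In 5 all DSS libraries lay below all control libraries, beside 9.60% of all tested genes and 15.3% of those averaging 5 FPKM or more. The part of this in the results was not tested. Transcripts of other cells were measured as well. The 8 neutrophil markers summed to 66.6 to 104 FPKM in DSS libraries and 3.06 to 6.24 FPKM in control libraries. Of the 5 tested, 3 were higher at a limma adjusted p under 0.05, beside 0.0738% of all tested genes, while Cxcr2 and Ly6g stayed under 1 FPKM in every library. The 9 macrophage and monocyte markers summed to 20.6 to 45.8 FPKM in DSS libraries and 12.2 to 17.0 FPKM in control libraries, with Ms4a7 under 1 FPKM throughout. The 9 epithelial markers summed to 29.3 to 33.9 FPKM in DSS libraries and 12.6 to 20.8 FPKM in control libraries. The 5 B and plasma cell markers summed to 42.3 to 189 FPKM in DSS libraries and 23.2 to 34.9 FPKM in control libraries, with Ms4a1 at 0 in some libraries. The 6 measured T cell markers summed to 21.4 to 56.8 FPKM in DSS libraries and 23.2 to 30.9 FPKM in control libraries, and Foxp3 stayed under 1 FPKM. The groups overlapped in the sums of stromal markers (14.6 to 32.3 FPKM in DSS, 22.6 to 37.7 FPKM in control), ILC3 markers (70.6 to 310 FPKM in DSS, 171 to 284 FPKM in control) and platelet markers (0.786 to 12 FPKM in DSS, 0.898 to 7.96 FPKM in control). The part of these cells in the results below was not tested, and in bulk RNA fewer cells of a type cannot be told apart from less RNA per cell.

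The comparison asks which steps of the pathway differ in transcript level between ILC2s of DSS colitis and of water controls. The 3 genes with the smallest p were the corepressor genes Skil and Tgif1 and the SMAD gene Smad3, whose DSS means were 0.505, 0.582 and 0.541 of the control means. The ligand gene Tgfb1 and the SMAD gene Smad2 had overlapping groups, and the type I receptor gene Tgfbr1 was the 1 gene with every DSS library above every control library. Each gene was tested with limma on log2(FPKM + 1) in a fit over 12187 genes, with Benjamini-Hochberg adjustment over all of them and a threshold of 0.05; a log2 change is DSS minus control on this scale, on which changes of genes near or under 1 FPKM come out too small. All 10 genes passed the filter on low values, a mean of 1 FPKM or more over the 6 libraries. Of the 10, 0 passed the threshold, beside 0.222% of all tested genes (0.148% lower and 0.0738% higher in DSS). At an unadjusted limma p under 0.05 there were 3, all lower in DSS, beside 8.99% of all tested genes in either direction and 5.42% lower. With limma's voom on whole fragments recovered from the FPKM values, 0 of the 10 passed (0.148% of all tested genes), and 4 had an unadjusted p under 0.05 (9.51% of all tested genes).

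**Figure D1:**
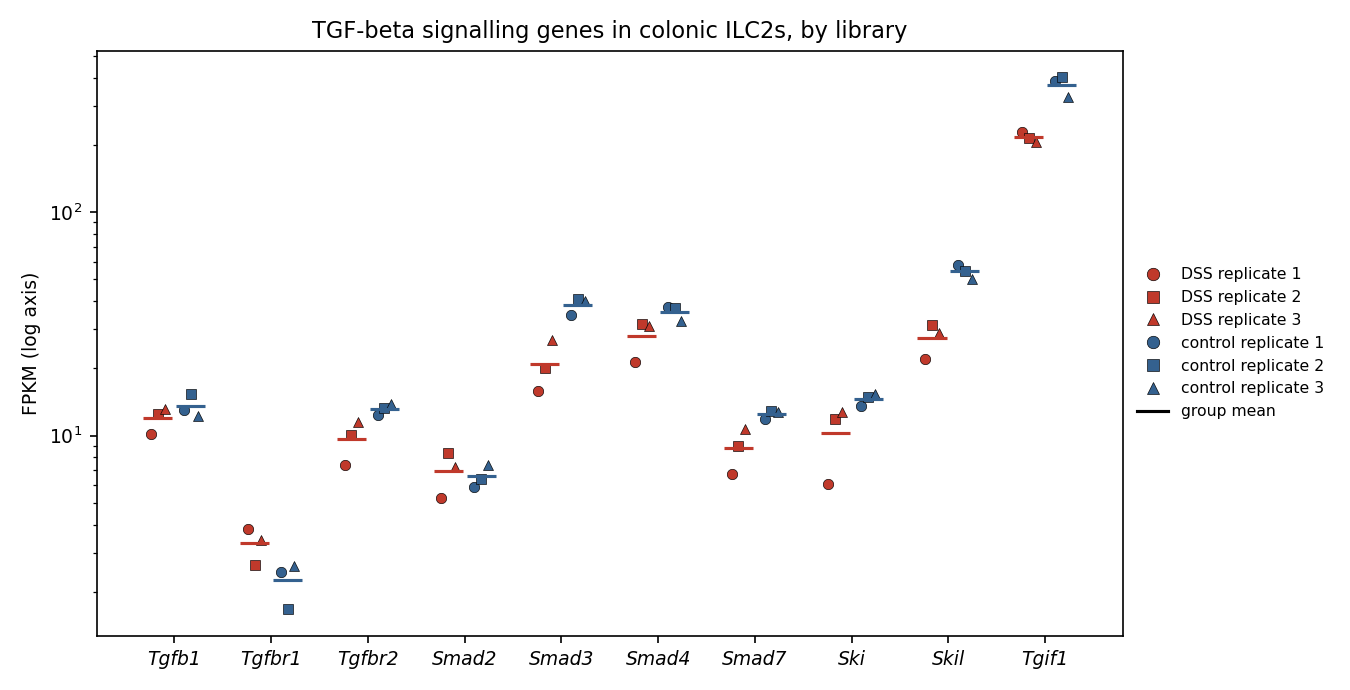
FPKM of the 10 genes on a log axis, with DSS libraries in red left of control libraries in blue; the marker shape gives the replicate number and the bar the group mean. Every DSS point lies below every control point for Tgfbr2, Smad3, Smad4, Smad7, Ski, Skil and Tgif1, and above for Tgfbr1.

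Measured per gene length, Tgif1 was the most abundant of the 10 in all 6 libraries and Tgfbr1 the least. In DSS libraries the order of mean FPKM was Tgif1 (216), Smad4 (28.0), Skil (27.5), Smad3 (20.9), Tgfb1 (11.9), Ski (10.3), Tgfbr2 (9.66), Smad7 (8.81), Smad2 (6.96) and Tgfbr1 (3.30). In control libraries it was Tgif1 (371), Skil (54.3), Smad3 (38.6), Smad4 (35.7), Ski (14.6), Tgfb1 (13.6), Tgfbr2 (13.2), Smad7 (12.5), Smad2 (6.57) and Tgfbr1 (2.25). Among tested genes Tgif1 stood at percentile 97.6 in DSS libraries and 98.5 in control libraries. Tgfbr1 stood at percentile 32.6 in DSS libraries and 27.2 in control libraries. Among neighbours in the DSS order, Smad4, Skil and Smad3 had overlapping ranges, as did the run from Tgfb1 to Smad2. In the control order Skil was apart from both its neighbours, Smad3 and Smad4 overlapped, and so did each neighbouring pair from Ski to Smad7. Skil ranked above Smad3 and Smad4 in each control library, and its range overlapped theirs in DSS libraries.

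The ligand gene Tgfb1, which encodes the main TGF-beta of immune cells, lies on chromosome 7 (GRCm38, 25687002 to 25705077, plus strand). It measured 10.2, 12.5 and 13.1 FPKM in DSS replicates 1, 2 and 3, against 13.1, 15.4 and 12.3 FPKM in control replicates 1, 2 and 3. The groups overlapped, with DSS replicate 1 the lowest library and control replicate 2 the highest. The log2 change was −0.17 ± 0.21 SE, with a 95% interval from −0.64 to 0.30 (limma adjusted p = 0.875). With 3 libraries a group, the interval held both a fall and a rise, so no direction was established.

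The 2 receptor genes had DSS levels on opposite sides of control. Tgfbr1 (chromosome 4, 47353222 to 47414931, plus strand) had 3.84, 2.65 and 3.41 FPKM in DSS replicates 1, 2 and 3, against 2.47, 1.68 and 2.61 FPKM in control replicates 1, 2 and 3. All DSS libraries were above all control libraries, though DSS replicate 2 and control replicate 3 differed by little. Tgfbr2 (chromosome 9, 116084293 to 116175360, minus strand) had 7.39, 10.03 and 11.6 FPKM in DSS replicates 1, 2 and 3, against 12.4, 13.4 and 13.8 FPKM in control replicates 1, 2 and 3. Here all DSS libraries were below all control libraries, DSS replicate 1 furthest. The log2 changes were 0.40 ± 0.30 SE for Tgfbr1 and −0.43 ± 0.22 SE for Tgfbr2 (limma adjusted p = 0.774 and 0.643), so neither passed. Tgfbr1 was the weakest expressed of the 10, with 198 to 331 fragments a library in DSS and 171 to 332 in control, while Tgfbr2 had 897 to 1558 in DSS and 1436 to 2346 in control.

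The promoters of this receptor pair are shown because the genes lay on opposite sides of their controls. Each sequence is the 250 bases before a RefSeq start site (GRCm38.p6), on the gene's strand: chr4:47352972-47353221 for Tgfbr1 and chr9:116175364-116175613 for Tgfbr2. For Tgfbr1 the start site farthest upstream of the 2 listed was used. Capitals mark CAGAC, a short SMAD-binding element, and GGGCGG, an SP and KLF factor element, on either strand; in no sequence printed here do they overlap.
Tgfbr1: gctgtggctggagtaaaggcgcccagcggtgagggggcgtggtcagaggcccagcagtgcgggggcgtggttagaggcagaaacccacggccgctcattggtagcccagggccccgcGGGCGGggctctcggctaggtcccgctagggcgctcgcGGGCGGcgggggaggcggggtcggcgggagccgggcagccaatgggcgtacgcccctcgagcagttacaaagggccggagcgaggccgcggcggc
Tgfbr2: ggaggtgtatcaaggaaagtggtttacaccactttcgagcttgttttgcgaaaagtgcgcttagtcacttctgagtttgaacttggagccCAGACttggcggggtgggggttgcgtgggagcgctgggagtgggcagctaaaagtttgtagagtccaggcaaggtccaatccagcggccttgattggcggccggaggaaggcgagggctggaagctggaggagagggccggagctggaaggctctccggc
The Tgfbr1 window held GGGCGG 2 times and no CAGAC, with a GC content of 74.8%. The Tgfbr2 window held CAGAC once, 160 bases before the start, and no GGGCGG, with a GC content of 58.4%. Of 32851 promoter windows of the same length, 42.2% held CAGAC and 32.7% held GGGCGG. Of the 8-letter SMAD palindrome GTCTAGAC (0.167% of windows) and of the AP-1 element TGANTCA (6.75% of windows), neither gene had a match.

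Of the receptor-activated SMAD genes, Smad2 had overlapping groups and Smad3 had separate ones. Smad2 measured 5.28, 8.34 and 7.25 FPKM in DSS replicates 1, 2 and 3, against 5.90, 6.40 and 7.40 FPKM in control replicates 1, 2 and 3. Its groups overlapped throughout, and DSS libraries were both the lowest and the highest. Smad3 (chromosome 9, 63646767 to 63757994, minus strand) measured 15.9, 20.1 and 26.7 FPKM in DSS replicates 1, 2 and 3, against 34.7, 41.1 and 40.1 FPKM in control replicates 1, 2 and 3. The highest DSS library was below the lowest control library, and the DSS libraries were the more spread (SD 5.44 and 3.43 FPKM in DSS and control, n = 3 each). The log2 change of Smad3 was −0.88 ± 0.23 SE, with a 95% interval from −1.40 to −0.37, and did not pass (limma adjusted p = 0.196). That of Smad2 was 0.06 ± 0.24 SE, with an interval from −0.48 to 0.59 (limma adjusted p = 0.969).

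The Smad3 promoter is shown for the SMAD gene with the smallest p (250 bases before the RefSeq start, chr9:63757995-63758244, minus strand, GRCm38.p6, with capitals as above).
Smad3: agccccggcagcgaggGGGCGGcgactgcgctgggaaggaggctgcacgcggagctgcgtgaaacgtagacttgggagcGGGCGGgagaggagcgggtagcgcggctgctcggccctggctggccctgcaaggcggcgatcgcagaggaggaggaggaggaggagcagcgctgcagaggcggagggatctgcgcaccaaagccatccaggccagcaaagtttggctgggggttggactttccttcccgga
It held GGGCGG 2 times, 171 and 234 bases before the start, and none of the 3 other elements named so far, with a GC content of 69.2%.

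Smad4, the shared partner gene, measured 21.4, 31.7 and 31.0 FPKM in DSS replicates 1, 2 and 3, against 37.6, 37.2 and 32.5 FPKM in control replicates 1, 2 and 3. DSS replicates 2 and 3 lay just under control replicate 3, and DSS replicate 1 lay well below the rest. Smad7, the inhibitory SMAD gene, measured 6.74, 9.02 and 10.7 FPKM in DSS replicates 1, 2 and 3, against 11.8, 12.9 and 12.8 FPKM in control replicates 1, 2 and 3. Its groups did not overlap, and the DSS libraries spread more widely (SD 1.98 and 0.599 FPKM in DSS and control, n = 3 each). The log2 changes were −0.36 ± 0.22 SE for Smad4 and −0.48 ± 0.23 SE for Smad7 (limma adjusted p = 0.712 and 0.583). Smad2, Smad4 and Smad7 all lie on chromosome 18.

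Among the corepressor genes, Skil had the largest log2 change in size, though without DSS replicate 1 it was −0.83, close to the −0.82 of Tgif1. Skil (chromosome 3, 31095058 to 31122577, plus strand) measured 22.0, 31.4 and 29.0 FPKM in DSS replicates 1, 2 and 3, against 57.9, 54.7 and 50.4 FPKM in control replicates 1, 2 and 3. The gap between the groups, from the highest DSS library to the lowest control library, was wider than the range within either group. The means were 27.5 ± 4.85 FPKM in DSS and 54.3 ± 3.77 FPKM in control (SD, n = 3 each), and the log2 change was −0.97 ± 0.21 SE, with a 95% interval from −1.44 to −0.51 (limma adjusted p = 0.132). Tgif1 (chromosome 17, 70844205 to 70853546, minus strand), which encodes a homeodomain corepressor, measured 228, 214 and 205 FPKM in DSS replicates 1, 2 and 3, against 386, 401 and 326 FPKM in control replicates 1, 2 and 3. It had tightly grouped DSS libraries, all well below the controls, and the means were 216 ± 11.7 FPKM in DSS and 371 ± 39.7 FPKM in control (SD, n = 3 each). The log2 change of Tgif1 was −0.77 ± 0.20 SE, with a 95% interval from −1.21 to −0.34 (limma adjusted p = 0.182). Ski (chromosome 4, 155154075 to 155222592, minus strand), the founding member of the SKI family, measured 6.10, 11.9 and 12.8 FPKM in DSS replicates 1, 2 and 3, against 13.6, 15.0 and 15.3 FPKM in control replicates 1, 2 and 3. DSS replicates 2 and 3 came close to control replicate 1, and the log2 change of −0.53 ± 0.28 SE (limma adjusted p = 0.643) rested largely on DSS replicate 1, being −0.23 without it.

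The Tgif1 promoter is shown as that of the most abundant of the 10 genes (250 bases before the RefSeq start site farthest upstream of the 5 in the table, chr17:70853533-70853782, minus strand, GRCm38.p6, with capitals as above).
Tgif1: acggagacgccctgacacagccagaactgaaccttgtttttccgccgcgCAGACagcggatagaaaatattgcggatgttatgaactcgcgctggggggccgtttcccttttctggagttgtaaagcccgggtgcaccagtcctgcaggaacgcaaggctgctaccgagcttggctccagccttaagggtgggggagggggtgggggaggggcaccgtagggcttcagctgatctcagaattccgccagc
It held CAGAC once, 201 bases before the start, and TGTCA, the element that TGIF1 itself is known to bind, once on either strand, 238 bases before the start. TGTCA occurred in 40.0% of all windows. It held no GGGCGG, and its GC content was 59.6%.

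**Figure D2:**
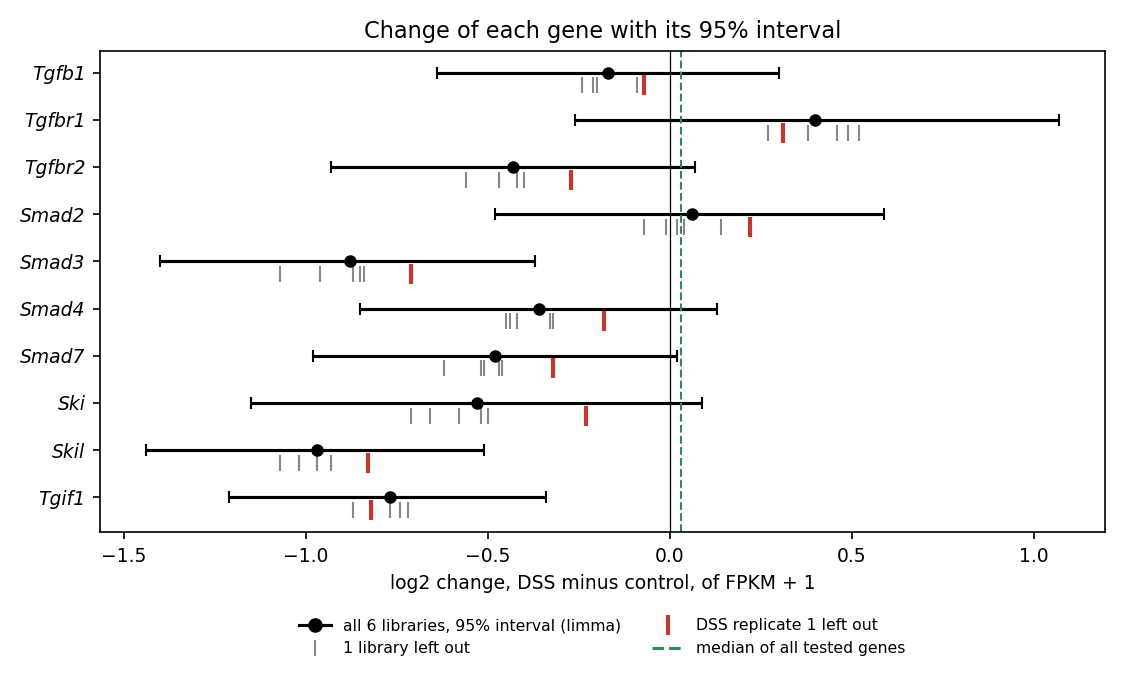
Log2 change of FPKM + 1, DSS minus control, for each gene with its 95% limma interval (black), the changes with 1 library left out (grey ticks), that without DSS replicate 1 (red tick) and the median of all tested genes (dashed). The intervals of Smad3, Skil and Tgif1 end below 0 and those of the other 7 genes include 0; for 8 of the 10 genes the red tick is the rightmost.

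As a group, 7 of the 10 genes had DSS libraries that were all below the lowest control library, beside 9.60% of all tested genes and 15.3% of those averaging 5 FPKM or more. For 1 gene, Tgfbr1, all were above the highest, beside 6.35% of all tested genes. Among genes averaging 5 FPKM or more that share was 7.10%, and 0 of 9 members had it. The median log2 change of the 10 was −0.46, against 0.03 over all 12187 tested genes. For the 9 genes averaging 5 FPKM or more it was −0.48, against −0.08 over the 6734 such genes. The summed level of the 10 genes was 327, 352 and 351 FPKM in DSS replicates 1, 2 and 3, against 576, 599 and 514 FPKM in control replicates 1, 2 and 3, most of it Tgif1. These are descriptions of genes chosen with earlier results of these data known, and they carry no test.

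One library weighed on most of them. DSS replicate 1 was the lowest of the 6 libraries for 8 of the 10 genes, the exceptions being Tgfbr1, for which it was the highest, and Tgif1, for which DSS replicate 3 was the lowest. DSS replicate 1 was the lowest library for 38.8% of all tested genes and for 43.9% of those averaging 5 FPKM or more. This library also had the highest total FPKM (550141) and gave 12.5% of its fragments to 85 cytosolic ribosomal protein genes, against 5.97% and 8.47% in the other DSS libraries and 7.34% to 7.62% in control libraries. It had the highest marker sums of T cells (56.8 FPKM), B and plasma cells (189 FPKM), ILC3s (310 FPKM) and epithelium (33.9 FPKM). Its sums of ILC2 markers (1473 FPKM) and stromal markers (14.6 FPKM) were the lowest. Its neutrophil, macrophage and platelet sums lay between those of other libraries. The part of these differences in the results was not tested. Without DSS replicate 1, Skil, Tgif1 and Smad3 passed, with log2 changes of −0.83, −0.82 and −0.71 (limma adjusted p = 0.00783, 0.00842 and 0.0405), beside 3.39% of all tested genes and 2.31% lower in DSS. Over the 15 alternatives the limma adjusted p ran from 0.00783 to 0.645 for Skil, from 0.00842 to 0.837 for Tgif1 and from 0.0405 to 0.809 for Smad3. Without DSS replicate 1 the median log2 change of the 10 was −0.25. Without it the log2 change was also −0.18 for Smad4, −0.27 for Tgfbr2, −0.07 for Tgfb1 and 0.22 for Smad2. In each of the other 14 alternatives 0 of the 10 genes passed. For Skil and Tgif1 the DSS libraries other than replicate 1 were each lower than the control mean by at least 0.77 on the log2(FPKM + 1) scale. For Smad4, Ski and Tgfbr2 they were lower by 0.17 to 0.36.

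**Figure D3:**
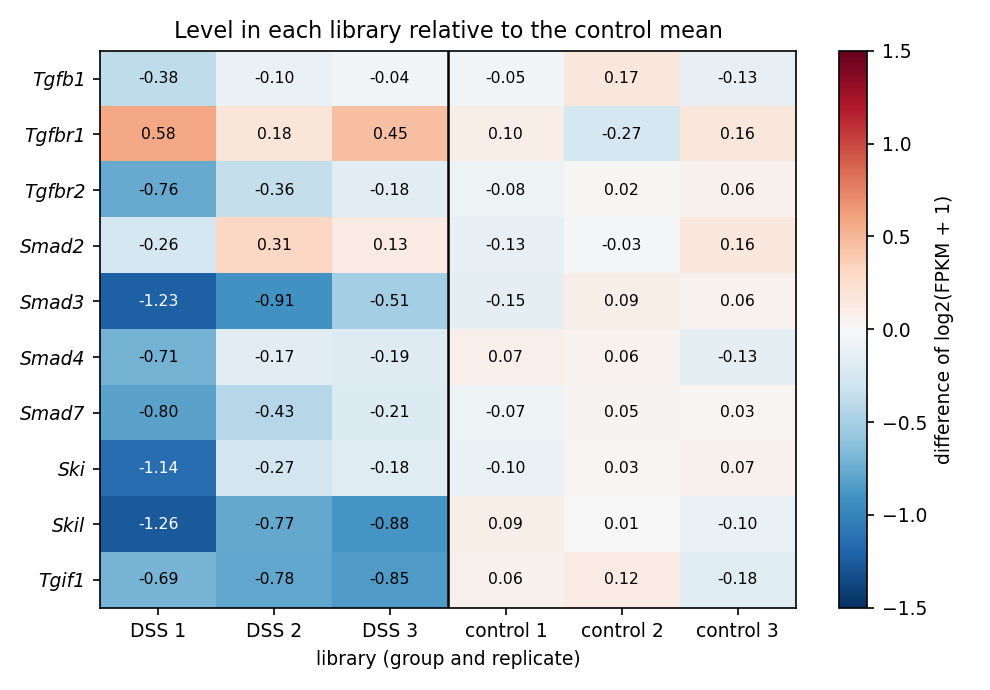
Difference of log2(FPKM + 1) from the control mean, for each gene (rows) in each library (columns, DSS left of the line and control right of it); blue is below the control mean and red above. Skil, Tgif1 and Smad3 are below the control mean in all 3 DSS libraries by 0.51 to 1.26, while Ski is at −1.14 in DSS replicate 1 and at −0.27 and −0.18 in DSS replicates 2 and 3.

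Ratios within a library do not depend on how the libraries were scaled against each other, so 4 ratios of related genes were compared, chosen after the values were seen. Smad3 over Smad2 was 3.01, 2.40 and 3.68 in DSS replicates 1, 2 and 3, against 5.88, 6.42 and 5.42 in control replicates 1, 2 and 3. Tgfbr2 over Tgfbr1 was 1.93, 3.78 and 3.39 in DSS replicates 1, 2 and 3, against 5.03, 7.97 and 5.29 in control replicates 1, 2 and 3. For both, every DSS library was below every control library. Skil over Ski averaged 2.84 ± 0.696 in DSS and 3.73 ± 0.488 in control, with overlap (SD, n = 3 each). Tgif1 over Tgif2, its close relative, was 12.7, 8.89 and 8.45 in DSS replicates 1, 2 and 3, against 12.3, 12.5 and 11.8 in control replicates 1, 2 and 3, also with overlap. A two-sided exact permutation test of the log2 ratios gave p = 0.1 for Smad3 over Smad2 and for Tgfbr2 over Tgfbr1, 0.2 for Skil over Ski and 0.4 for Tgif1 over Tgif2. The value 0.1 is the smallest that 3 libraries against 3 allow, and the Benjamini-Hochberg adjusted values over the 4 ratios were 0.2, 0.2, 0.267 and 0.4.

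**Figure D4:**
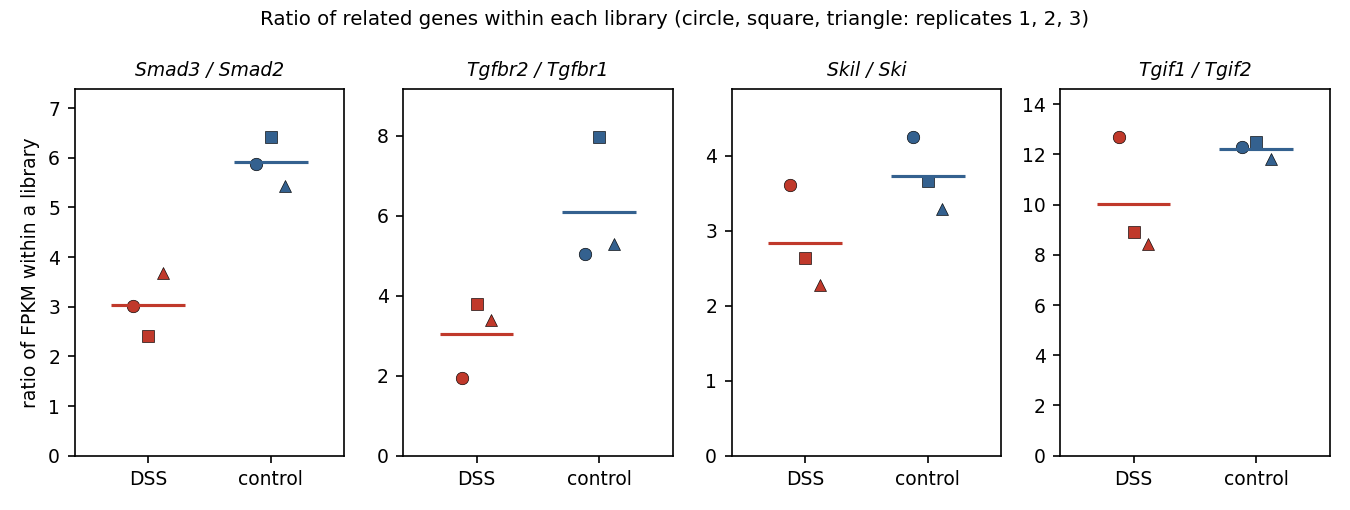
Ratio of FPKM within each library for 4 gene pairs, DSS in red left of control in blue, with circles, squares and triangles for replicates 1, 2 and 3 and bars for group means; each axis starts at 0. Smad3 over Smad2 spans 2.40 to 3.68 in DSS and 5.42 to 6.42 in control libraries, and DSS replicate 1 lies among the controls for Skil over Ski and above them for Tgif1 over Tgif2.

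The wider pathway was read from 87 other genes in 7 lists by role, of which 65 averaged 1 FPKM or more and were tested. By limma 0 of the 65 passed, beside 0.222% of all tested genes, and 9 had an unadjusted p under 0.05, 3 higher and 6 lower in DSS, beside 8.99%. With voom 0 passed, beside 0.148%, and 10 had an unadjusted p under 0.05, beside 9.51%. Their median log2 change was −0.11, with 42 below 0 and 23 above, and in 11 all DSS libraries lay below all controls and in 3 above, beside 9.60% and 6.35% of all tested genes. Without DSS replicate 1, when 3.39% of all tested genes passed, 4 of the 65 did: Furin and Nedd9 lower, and Itgb3 and Klf2 higher (log2 changes −0.99, −0.73, 0.61 and 1.06; limma adjusted p = 0.0023, 0.0235, 0.0422 and 0.00654).

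**Figure D5:**
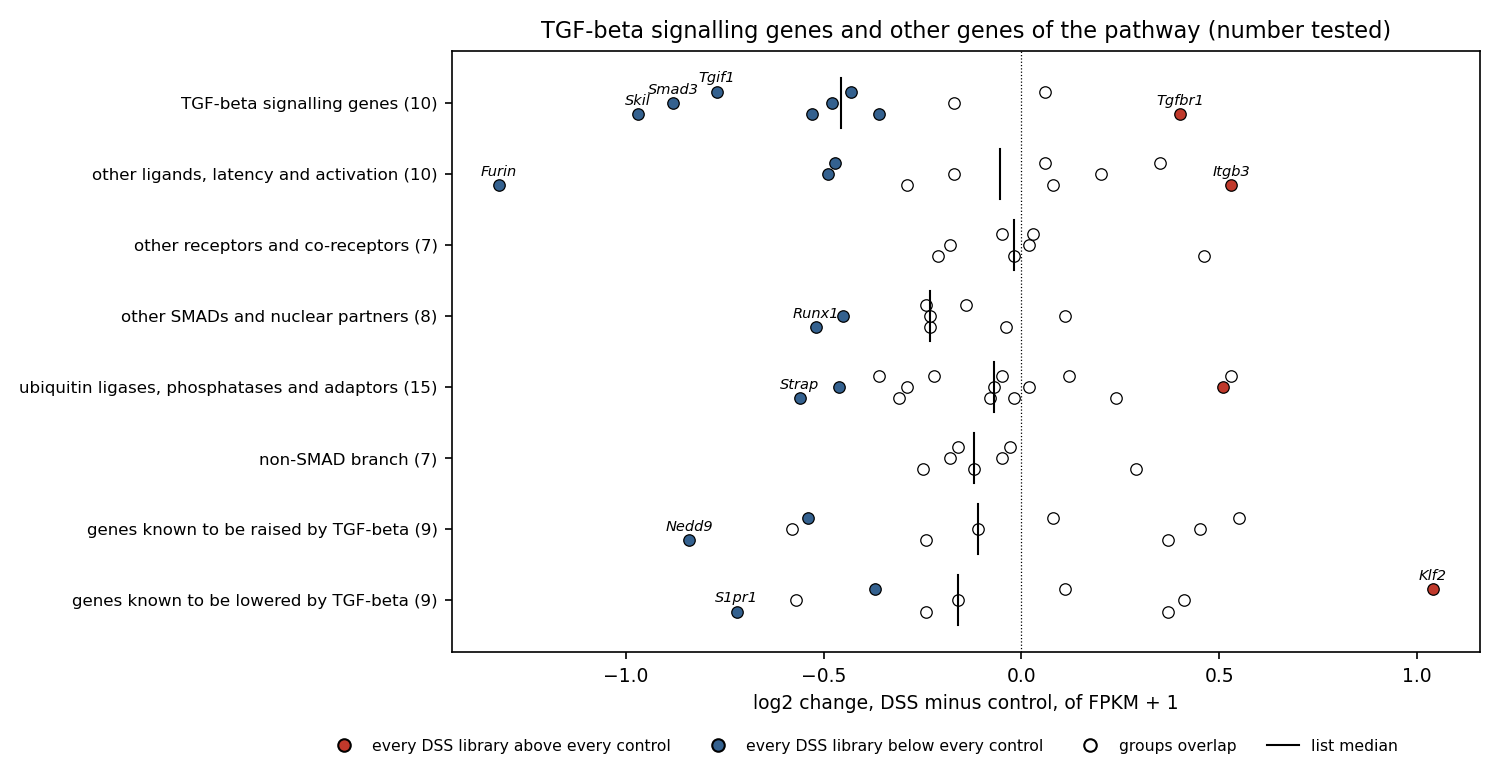
Log2 change of FPKM + 1, DSS minus control, of each tested gene by list, with the list median as a line; filled points are genes whose groups do not overlap (red with DSS above, blue with DSS below) and open points overlap. The 10 TGF-beta signalling genes have a median of −0.46, and the 7 other lists have medians from −0.23 to −0.02.

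Of 21 genes for other ligands, latency and activation, 10 were tested and 11 were under the filter, among them Tgfb2, Inhba and the latency genes Ltbp1 and Lrrc32. The latency genes Nrros, Ltbp3 and Ltbp4 passed the filter. Nrros averaged 78.3 ± 24.8 FPKM in DSS and 106 ± 4.38 FPKM in control (SD, n = 3 each), without overlap (limma adjusted p = 0.649). Furin, the protease that cuts the TGF-beta precursor, measured 34.5, 65.0 and 73.4 FPKM in DSS replicates 1, 2 and 3, against 141, 143 and 131 FPKM in control replicates 1, 2 and 3. Its groups did not overlap, and the log2 change was −1.32 ± 0.28 SE (limma adjusted p = 0.132). The integrin αv subunit gene Itgav, whose dimers release TGF-beta from latency, averaged 33.5 ± 5.0 FPKM in DSS and 46.7 ± 5.45 FPKM in control, while its β3 partner gene Itgb3 averaged 59.7 ± 8.84 FPKM in DSS and 40.7 ± 1.5 FPKM in control (SD, n = 3 each). Both had groups that did not overlap, on opposite sides (limma adjusted p = 0.533 and 0.414). Of 12 other receptors 7 were tested and none had separate groups, beside 9.60% of all tested genes with DSS below and 6.35% with DSS above. With so few genes, this count says little about receptors. The co-receptor gene Tgfbr3 averaged 3.71 ± 1.34 FPKM in DSS and 2.46 ± 1.04 FPKM in control, the decoy receptor gene Bambi 72.1 ± 4.85 FPKM in DSS and 81.6 ± 5.82 FPKM in control, and the endoglin gene Eng 5.69 ± 3.23 FPKM in DSS and 6.49 ± 3.63 FPKM in control (limma adjusted p = 0.786, 0.853 and 0.929). Bambi was measured at a higher level than either main receptor gene in all 6 libraries.

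Of 12 other SMADs and nuclear partners 8 were tested. Smad1 and Smad5, which serve bone morphogenetic protein receptors, averaged 5.0 ± 1.51 and 6.11 ± 0.905 FPKM in DSS against 5.09 ± 0.937 and 6.83 ± 1.04 FPKM in control, with overlap. The inhibitory Smad6 was under 1 FPKM in every library. Runx1, a lymphocyte transcription factor that partners SMADs, averaged 24.5 ± 2.64 FPKM in DSS and 35.6 ± 1.69 FPKM in control, and Tgif2 averaged 22.1 ± 3.56 FPKM in DSS and 30.4 ± 2.37 FPKM in control, both without overlap (limma adjusted p = 0.414 and 0.572). Runx3 averaged 69.8 ± 21.6 FPKM in DSS and 79.5 ± 4.79 FPKM in control and overlapped. Of 16 ubiquitin ligases, phosphatases and adaptors 15 were tested. Fkbp1a, whose product holds the type I receptor inactive, averaged 45.6 ± 7.85 FPKM in DSS and 31.5 ± 2.76 FPKM in control, and Strap, an adaptor that works with SMAD7, averaged 33.9 ± 8.59 FPKM in DSS and 49.7 ± 5.63 FPKM in control (limma adjusted p = 0.483 and 0.486). Smurf2, a ubiquitin ligase for the receptors, averaged 7.65 ± 1.86 FPKM in DSS and 4.98 ± 1.2 FPKM in control with overlap (limma adjusted p = 0.61). Of the 7 genes of the branch that bypasses SMADs, none had separate groups, beside 9.60% of all tested genes with DSS below and 6.35% with DSS above. With so few genes, this count says little about the branch. Traf6, Map3k7 and Tab3 had the smallest p (limma adjusted p = 0.819, 0.876 and 0.879).

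Of 9 genes known to be raised by TGF-beta in other cells, 4 had a log2 change above 0 and 5 below, with a median of −0.11. Nedd9, a cell adhesion adaptor, measured 18, 21.3 and 24.4 FPKM in DSS replicates 1, 2 and 3, against 41.9, 34.7 and 39.4 FPKM in control replicates 1, 2 and 3. Its groups did not overlap, and the log2 change was −0.84 ± 0.20 SE (limma adjusted p = 0.17). Ccn2, a matricellular protein gene, averaged 0.935 ± 0.509 FPKM in DSS and 1.88 ± 0.612 FPKM in control. Of 10 genes known to be lowered by TGF-beta in other cells, 9 were tested, 4 above 0 and 5 below, with a median of −0.16. Klf2, whose product drives egress receptors in lymphocytes, measured 213, 261 and 186 FPKM in DSS replicates 1, 2 and 3, against 97.7, 120 and 98.8 FPKM in control replicates 1, 2 and 3. All 3 DSS libraries lay above the controls (log2 change 1.04 ± 0.21 SE, limma adjusted p = 0.118), while S1pr1, the egress receptor gene known as a KLF2 target, averaged 5.05 ± 2.21 FPKM in DSS and 8.51 ± 0.661 FPKM in control (limma adjusted p = 0.483). Myc averaged 145 ± 17.3 FPKM in DSS and 186 ± 7.19 FPKM in control (limma adjusted p = 0.644). In both lists the values lay on either side of 0.

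The genes most like Skil and Tgif1 over the 6 libraries were found by the root mean square distance between log2(FPKM + 1) profiles, each centred on its own mean. The ranking covered tested genes, leaving out the TGF-beta signalling genes themselves and predicted genes (named Gm plus digits or ending in Rik). Nearest to Skil were Ppif (0.060), Socs5 (0.068), Antxr2 (0.077), Etv3 (0.078) and Smim3 (0.084), against a median distance of 0.609 over the genes ranked. Socs5, a suppressor of cytokine signalling, averaged 9.06 ± 1.62 FPKM in DSS and 18.5 ± 0.218 FPKM in control, and Etv3, an ETS repressor gene, averaged 15.8 ± 3.0 FPKM in DSS and 29.3 ± 1.74 FPKM in control. Nearest to Tgif1 were Ing3 (0.058), Socs2 (0.068), Cnot7 (0.075), Plscr1 (0.082) and Slc3a2 (0.086), against a median of 0.554. Socs2, a feedback inhibitor of cytokine receptors, averaged 198 ± 20.9 FPKM in DSS and 331 ± 33.4 FPKM in control, and Slc3a2, the amino acid transporter chain CD98, averaged 306 ± 23.0 FPKM in DSS and 501 ± 25.9 FPKM in control. Among the other TGF-beta signalling genes, the nearest to Skil was Smad3 (0.198) and the nearest to Tgif1 was Skil (0.218). These distances describe profiles over the same 6 libraries and carry no test.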

How the data were processed

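Bulk RNA sequencing covered 3 DSS and 3 control libraries of colonic ILC2s. Per the labels' protocols, TRIzol was used for extraction, the SMART-Seq HT kit for cDNA and Nextera XT, a method without strand information, for the libraries. The submitters' processing notes list cutadapt 1.9, HISAT2 2.2.1 and mm10; for the counting tool, annotation and gene lengths the sources used here state nothing. The authors deposited FPKM values by gene symbol, and columns were matched to samples by name and title.

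Whole fragments were recovered from the FPKM steps (tolerance 0.001) for 22701 of 22701 genes above 0. A gene above 0 in a single library always meets this test, and one above 0 in few libraries can hardly fail it, as many multipliers were tried. It bears mainly on the 13957 genes above 0 in all libraries, the 10 members among them. Chi-square per degree of freedom between libraries was 22.7 to 245, so none was a duplicate. As FPKM is not a count, limma 3.58.1 under R 4.3.3 (linear model, moderated with a trend, two-sided, Benjamini-Hochberg) was run on log2(FPKM + 1) for the 12187 genes averaging 1 FPKM or more. Alternatives were pseudocounts of 0.1 and 5, no filter, a filter at 5 FPKM, median-of-ratios scaling, quantile normalization, voom, the replicate block, leaving out each library and, chosen after seeing the data, leaving out both replicates 3. Members and gene lists were chosen with earlier results of these data known. Named were all 10 members; in each of 7 lists the 3 genes with the smallest p, of which 1 is not reported here; Smad1, Smad5, Smad6 and Tgfbr3; and the 5 nearest profiles of the 2 members with the smallest p. Tgfb2, Inhba, Ltbp1 and Lrrc32 were added as examples of genes under the filter, and Nrros, Ltbp3 and Ltbp4 as latency genes that passed it.

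Deviations from the group means correlated at 0.189, 0.262 and 0.545 between DSS and control libraries of the same number. All exceed 0.1, the limit set for treating numbers as pairs. Libraries of different numbers exceeded it as well: DSS replicate 2 with control replicate 1 (0.345) and DSS replicate 1 with control replicate 2 (0.101). The other correlations between different numbers ran from −0.450 to −0.218. The pairing rests on the data and not on labels, and it is uncertain. The main fit used no pairs, and the replicate block was an alternative.

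Positions are from GENCODE M21 (GRCm38, equal to mm10; 1-based), in which none of the 10 genes shared exonic bases with another gene. Promoters are from RefSeq (GRCm38.p6), with 6 of the 10 genes matched. Tables were made with Python 3.11.15 and pandas 2.3.3, and plots with matplotlib 3.10.9.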

Additional observations from a re-analysis of the deposited data

How the results depend on the processing

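Of 149 values of the 10 genes under 15 alternatives, 144 kept their direction and their side of the threshold. The other 5 came from leaving out 1 library: Skil, Tgif1 and Smad3 passed without DSS replicate 1, and Smad2 changed sign. The number of the 10 genes that passed ran from 0 to 3 when 1 library was left out and was 0 in every other setting, the replicate block included. The number of other pathway genes that passed likewise ran from 0 to 4. The median log2 change of the 10 ran from −0.59 to −0.25 with 1 library left out. Over all tested genes, 27 passed (9 higher and 18 lower in DSS), 22 with the replicate block (12 and 10), 9 after median-of-ratios scaling (5 and 4), 5 without both replicates 3 (5 and 0), and 4 to 413 with 1 library left out. The cause was not tested. With 1 library left out, Smad2 ran from −0.07 to 0.22, Smad1 from −0.23 to 0.13, Eng from −0.52 to 0.28 and Runx3 from −0.40 to 0.05 on the log2 scale, so these 4 have no stable direction. The block changed no call of the 10 genes or of the other pathway genes named here. With 3 libraries a group and 198 to 331 fragments a DSS library, Tgfbr1 is the member whose level is least precisely counted.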
